A study of Homo sapiens with 14 samples.

Results

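The 34 genes described here code for the chaperones of the endoplasmic reticulum (ER) and for the sensors and outputs of its unfolded protein response, followed across Jurkat cells in which the kinase scaffold KSR2 was inhibited or its gene targeted. They were taken by symbol from the deposited table of counts, in which all 34 were found among 61541 genes and all 34 passed the low-count filter that left 18963 genes for testing. Jurkat is a human line of T-cell acute lymphoblastic leukaemia that carries active TAL1. Polyadenylated RNA was sequenced in 14 libraries of 5 groups: solvent alone (DMSO, n = 3), the KSR inhibitor APS-2-79 (KSRi, n = 3), a non-targeting guide (NT, n = 2), and guide 1 (n = 3) or guide 2 (n = 3) against *KSR2*. The labels disagree on what the guides did, since sample titles say CRISPR knockout, the series text says CRISPRi, and the control's library names refer to a hairpin. No other allele or agent is labelled, and the dose of the inhibitor, the treatment time, the time since the guides were introduced and whether clones or pools were used were not given in the sources used here. Nothing in the labels makes the replicates separate cultures, so p-values speak only of the spread among these samples, and that spread may be technical.

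Proteins that enter the secretory pathway fold in the ER with the help of the Hsp70 BiP, the lectins calnexin and calreticulin and the protein disulphide isomerases, and those that fail are passed back to the cytosol for degradation. When unfolded proteins accumulate, the sensors IRE1 (*ERN1*), PERK (*EIF2AK3*) and ATF6 start a response in which IRE1 splices *XBP1* mRNA, PERK raises translation of ATF4, and cleaved ATF6 enters the nucleus, and the resulting factors raise chaperone and degradation genes through ER stress response elements in their promoters. The response is best known among lymphocytes for the part XBP1 plays in plasma cells. Counts per gene show the amount of mRNA and cannot show *XBP1* splicing, phosphorylation or ATF6 cleavage.

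Depth was 21710466 to 45897075 counts per library. Levels are given as CPM, counts scaled to a common library size with TMM factors. *KSR2* itself stood at 37.0 ± 2.23 CPM in DMSO (SD, n = 3), 34.3 ± 1.20 in KSRi (n = 3) and 29.5 ± 0.786 in NT (n = 2). It stood at 0.541 ± 0.110 with guide 1 (n = 3) and 0.766 ± 0.0492 with guide 2 (n = 3). This matches the labels as to the gene targeted, and does not tell which of the labelled methods was used. All 15 T-lineage markers listed exceeded 1 CPM in every library, while 10 of 10 myeloid, 9 of 10 epithelial and stromal and 7 of 8 erythroid and megakaryocyte markers stayed below 1 CPM in every library. Of 10 B-cell and plasma-cell markers, 7 stayed below 1 CPM, and *MS4A1* did not exceed 0.0914 CPM. The other 3, *CD79A*, *EBF1* and *MZB1*, were above 1 CPM in every library. Mitochondrially encoded transcripts took 1.27% to 1.45% of the counts in DMSO, 1.12% to 2.51% in KSRi, 1.85% to 2.50% in NT, 1.76% to 2.37% with guide 1 and 1.15% to 2.71% with guide 2. Pairs of KSRi replicates differed more than pairs of DMSO replicates (chi-square per degree of freedom 15.8 to 45.0 against 5.46 to 7.33). Guide 2 pairs, at 8.81 to 24.8, overlapped the KSRi range, guide 1 pairs were at 7.27 to 13.4 and the NT pair at 9.23. The main fit shared 1 estimate of spread per gene over all groups, so it made no allowance for a wider spread in KSRi. When only KSRi and DMSO were fitted, with fewer libraries, *ERN1*, *CALR* and *P4HB* lost their calls. The part of these differences in the results was not tested further.

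The promoters of several members carry the letters of elements through which the response is known to act, and 5 are shown because they belong to genes whose levels differed between the groups below. In the RefSeq table of promoters (GRCh38.p14, 250 bases before to 50 bases after each start), 32 of the 34 members were found. The ER stress response element was searched on both strands as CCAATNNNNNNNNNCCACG and its second form as ATTGGNCCACG. The first was found for 7 members (21.9% of 32), against 27 of all 35116 promoters (0.0769%), and the second for 3 members (9.38%), against 19 (0.0541%). The 7 are *CALR*, *CANX*, *CRELD2*, *HSP90B1*, *HSPA5*, *PDIA6* and *XBP1*, and the 3 are *HERPUD1*, *HYOU1* and *SDF2L1*. The UPR element core, TGACGTGG, which shares CGTGG with the reverse complement of the first, was found for *HYOU1* and *SSR3* (6.25% of 32) and in 256 of all promoters (0.729%). Members were counted by gene, with a match at any listed start, and the background by promoter with those of the members included. The percentages therefore have unlike units. The members were listed for the response that these elements are known for, so the contrast is not a test. A match is a description of the letters, and no match says only that they are absent from this window. Below, the elements of 5 members are in capitals with up to 60 bases on either side, read 5′ to 3′ along the gene. Where the capitals begin with CGTGG, the element lies on the opposite strand.
*HSPA5* promoter, chr9:125241331-125241469, minus strand: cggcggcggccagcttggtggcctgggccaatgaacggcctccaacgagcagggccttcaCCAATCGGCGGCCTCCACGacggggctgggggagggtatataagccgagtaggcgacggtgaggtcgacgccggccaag
*XBP1* promoter, chr22:28800543-28800681, minus strand: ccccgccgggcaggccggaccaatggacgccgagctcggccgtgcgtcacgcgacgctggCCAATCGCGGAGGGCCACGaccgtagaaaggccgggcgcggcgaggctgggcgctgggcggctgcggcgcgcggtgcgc
*HSP90B1* promoter, chr12:103930160-103930399, plus strand: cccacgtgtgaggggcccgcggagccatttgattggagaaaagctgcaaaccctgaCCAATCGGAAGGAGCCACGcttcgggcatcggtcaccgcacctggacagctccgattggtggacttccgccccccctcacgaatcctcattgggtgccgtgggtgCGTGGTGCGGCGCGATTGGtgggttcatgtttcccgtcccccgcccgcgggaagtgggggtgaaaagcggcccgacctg
*CANX* promoter, chr5:179698718-179698856, plus strand: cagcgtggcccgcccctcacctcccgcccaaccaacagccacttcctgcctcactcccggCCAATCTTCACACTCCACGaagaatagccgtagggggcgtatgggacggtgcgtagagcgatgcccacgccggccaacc
*SDF2L1* promoter, chr22:21642054-21642184, plus strand: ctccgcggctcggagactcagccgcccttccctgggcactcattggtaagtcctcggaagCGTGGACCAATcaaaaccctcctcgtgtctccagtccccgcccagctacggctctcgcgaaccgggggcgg

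In the order printed, the elements lie at −66 to −48 from the start of *HSPA5* and at −52 to −34 from that of *XBP1*, counting bases before the start as negative. *HSP90B1* holds a pair, at −194 to −176 and −89 to −71. The element of *CANX* lies at a different distance from each of its 3 listed starts, and that of *SDF2L1* is at −188 to −178. *HERPUD1*, whose promoter is not printed, has its element at chr16:56932025-56932035, at −117 to −107.

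In solvent-treated cells the members spanned a wide range of levels. Per kilobase of exon, so that genes can be compared, calreticulin (*CALR*) stood highest at 683 ± 55.4 CPM per kb (SD, n = 3), followed by BiP (*HSPA5*, 171 ± 10.7) and calnexin (*CANX*, 167 ± 4.97), whose difference was smaller than their summed SDs. The ER Hsp90 GRP94 (*HSP90B1*) came next at 142 ± 2.46 CPM per kb. From *SEC61A1* (85.2 ± 7.82) through *P4HB*, *EDEM1*, *PDIA6*, *PDIA4*, *PDIA3* and *SEC61B* to *HYOU1* (55.1 ± 1.70), no neighbours in the order were separated beyond their SDs. The sensors were scarce, with *ATF6* at 15.4 ± 0.967, *EIF2AK3* at 7.21 ± 0.0671 and *ERN1* at 5.92 ± 0.167 CPM per kb, and *XBP1* stood at 28.6 ± 1.25. *DNAJB9* (5.38 ± 0.292) and *SIL1* (3.84 ± 0.291) were the lowest. Exon lengths are those of the GENCODE v29 union of exons, and the authors' annotation was not given in the sources used here. A union counts every annotated exon, so the order of genes depends on the annotation. The SDs cover only the spread between libraries. All members together summed to 9144 CPM in DMSO, 9354 in KSRi, 16230 in NT, 16020 with guide 1 and 16710 with guide 2 (group means). These sums carry the TMM factors, so they are not plain shares of the counts.

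**Figure D1:**
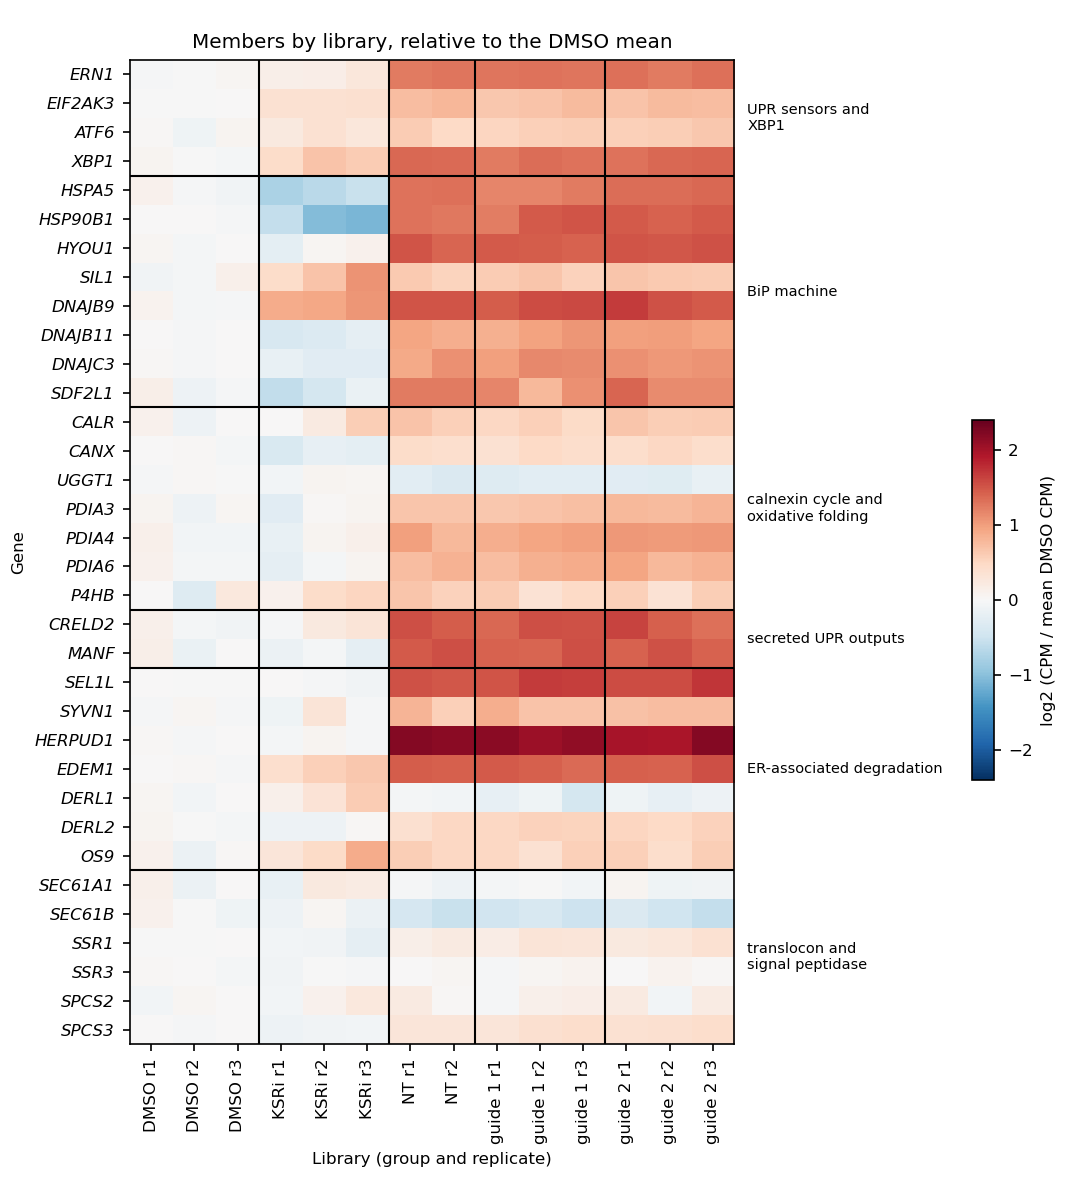
Level of each of the 34 genes (rows, grouped by role) in each of the 14 libraries (columns), as log2 of CPM over the mean CPM of the DMSO libraries; red is higher and blue lower. The NT, guide 1 and guide 2 columns are red for most genes and look alike, whereas the KSRi columns mix red (*DNAJB9*, *SIL1*, *XBP1*) with blue (*HSP90B1*, *HSPA5*).

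The first comparison asked what the KSR inhibitor did to these genes. With KSRi the members went both ways. The 3 sensors and *XBP1* rose (4 of 4), though the call of *ERN1* was lost in 5 of 14 alternative fits. Of 8 genes of the BiP machine 5 fell, including BiP and GRP94, and 2 rose. In the calnexin cycle and oxidative folding group 2 of 7 rose and 1 fell. Of 7 degradation genes 3 rose. None of the 6 translocon and signal peptidase genes or the 2 secreted outputs was called. The lists were chosen with earlier results of these data known, so the counts by role are a description. In all, 11 members were called higher and 6 lower by edgeR's quasi-likelihood test at an adjusted p under 0.05, and 17 were not called. Over all genes tested, 22% were called higher, 18.7% lower and 40.7% either way, so the members' calls are read against a table in which a large share of genes moved. The median log2 change of the members was 0.00, and that of all genes 0.02. Without KSRi replicate 3, 7 members rather than 11 were called higher. In bulk RNA, a change in cell makeup and a change in RNA per cell cannot be told apart.

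Among the sensors, *ERN1* codes for IRE1, the kinase and nuclease that splices *XBP1* (ENSG00000178607; chr17:64039142-64130819, minus strand, GRCh38). It stood at 62.9, 63.8 and 66.4 CPM in DMSO and 70.8, 71.7 and 77.7 CPM in KSRi. The KSRi libraries lay just above all DMSO libraries (1.14-fold, edgeR adjusted p = 0.019, log2 change 0.19 with SE 0.06). This call was lost without a low-count filter (adjusted p = 0.174), when only the 2 groups were fitted (0.0741), and without DMSO replicate 1 (0.0677), DMSO replicate 2 (0.0602) or KSRi replicate 3 (0.0737). *EIF2AK3* codes for PERK, which phosphorylates the translation factor eIF2 alpha (ENSG00000172071; chr2:88556741-88627576, minus strand, GRCh38). Its levels were 39.1, 38.9 and 39.6 CPM in DMSO and 50.6, 50.4 and 51.0 CPM in KSRi. The groups did not overlap and each was narrow (1.29-fold higher, edgeR adjusted p = 0.000111, log2 change 0.37 with SE 0.06). *ATF6* codes for the membrane-bound factor that is cleaved in the Golgi apparatus under stress (ENSG00000118217; chr1:161766294-161964070, plus strand, GRCh38). It was measured at 124, 113 and 127 CPM in DMSO and 143, 155 and 146 CPM in KSRi. Every KSRi library was above every DMSO library (1.22-fold, edgeR adjusted p = 0.00196, log2 change 0.29 with SE 0.07).

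*XBP1* codes for the factor made from the spliced message (ENSG00000100219; chr22:28794555-28800597, minus strand, GRCh38). Its counts, which sum both forms of the message, came to 90.8, 85.7 and 83.4 CPM in DMSO and 118, 139 and 133 CPM in KSRi. KSRi replicate 1 was the lowest of its group and still above all DMSO libraries (1.50-fold higher, edgeR adjusted p = 5.09e-06, log2 change 0.59 with SE 0.07). Among the members in this group of 4, *XBP1* had the largest change.

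The BiP machine moved in both directions. *HSPA5* codes for BiP, the Hsp70 of the ER (ENSG00000044574; chr9:125234853-125241330, minus strand, GRCh38). It stood at 714, 658 and 632 CPM in DMSO and 393, 427 and 460.4 CPM in KSRi. All 3 KSRi libraries were below the lowest DMSO library (1.57-fold lower, edgeR adjusted p = 3.40e-06, log2 change −0.65 with SE 0.07). *HSP90B1*, for GRP94, the Hsp90 of the ER, stood at 674, 674 and 654 CPM in DMSO and 447, 322 and 311 CPM in KSRi. KSRi replicate 1 was the highest of its group, and the groups did not overlap (1.85-fold lower, edgeR adjusted p = 1.08e-05, log2 change −0.89 with SE 0.11). Of the J proteins, which load BiP with clients, *DNAJB11* (1.24-fold, adjusted p = 0.00171) and *DNAJC3* (1.18-fold, adjusted p = 0.00955) also fell by edgeR. *SDF2L1*, a partner of DNAJB11, fell 1.31-fold (edgeR adjusted p = 0.0156), a call lost without DMSO replicate 1 (0.0717) or KSRi replicate 2 (0.0543).

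*DNAJB9* codes for ERdj4, a J protein that is also a well-known target of spliced XBP1 (ENSG00000128590; chr7:108569568-108574850, plus strand, GRCh38). Its levels were 16.2, 14.7 and 14.9 CPM in DMSO and 28.2, 29.0 and 31.7 CPM in KSRi. It rose in every KSRi library, by 1.94-fold (edgeR adjusted p = 1.61e-07, log2 change 0.96 with SE 0.08), the lowest adjusted p of the 34 genes. *SIL1*, a nucleotide exchange factor of BiP, rose 1.67-fold (edgeR adjusted p = 0.000105). Its exons share 372 of 4011 bases with other genes, among them *MATR3* and *SNHG4* on the opposite strand, so a part of its counts could belong to them. *HYOU1*, for the large Hsp70-like exchange factor GRP170, had a log2 change of −0.02 (adjusted p = 0.848) and was not called. Exon overlap with other genes, most of it on the opposite strand, also touches *DNAJB11* (1328 of 5731 bases), *HYOU1* (666 of 7694), *HSP90B1* (357 of 4695) and *DNAJB9* (183 of 2837). Among members called in other roles it touches *EIF2AK3* (819 of 5434), *OS9* (699 of 5169), *EDEM1* (653 of 6758), *P4HB* (529 of 5303), *DERL1* (511 of 7081), *CALR* (270 of 2714) and *CANX* (150 of 6235). Of members called only in NT against DMSO, exon overlap also touches *PDIA6* (1033 of 4101), *PDIA3* (803 of 4240) and *SYVN1* (554 of 5496, a part with *FAU* on the same strand). It touches *SPCS3* (314 of 6831), *DERL2* (301 of 6386), *SSR1* (220 of 11349) and *CRELD2* (168 of 5165) as well. Without a known strand setting, reads of genes on opposite strands cannot be told apart.

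In the calnexin cycle and oxidative folding group, *CANX* codes for calnexin, the membrane lectin that holds glycoproteins while they fold (ENSG00000127022; chr5:179678628-179730925, plus strand, GRCh38). It stood at 1054, 1063 and 1006 CPM in DMSO and 813, 907 and 888 CPM in KSRi. The KSRi libraries were all lower (1.20-fold, edgeR adjusted p = 0.00558, log2 change −0.26 with SE 0.07). *P4HB* codes for protein disulphide isomerase (ENSG00000185624; chr17:81843159-81860694, minus strand, GRCh38). It was counted at 448, 356 and 527 CPM in DMSO and 476, 605 and 636 CPM in KSRi. The groups overlapped, since DMSO replicate 3 was above KSRi replicate 1 (1.29-fold higher, edgeR adjusted p = 0.0295, log2 change 0.37 with SE 0.13). The *P4HB* call was lost when only the 2 groups were fitted (adjusted p = 0.0874) and without DMSO replicate 1 (0.0633), DMSO replicate 2 (0.162), KSRi replicate 2 (0.0971) or KSRi replicate 3 (0.11). *CALR*, for calreticulin, the soluble lectin, was 1.22-fold higher with overlapping libraries (edgeR adjusted p = 0.0492). That call was lost in 8 of 14 alternatives, with an adjusted p of 0.0631 under RLE factors, 0.0513 by DESeq2, and 0.182, 0.0988, 0.0599 and 0.345 without DMSO replicate 2, DMSO replicate 3, KSRi replicate 2 and KSRi replicate 3. The glucosyltransferase *UGGT1* (0.01) and the disulphide isomerases *PDIA3* (−0.06), *PDIA4* (0.01) and *PDIA6* (−0.06, log2 change) were not called.

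Of the secreted outputs, *CRELD2* codes for a cysteine-rich protein released under ER stress and *MANF* for a BiP-binding trophic factor (ENSG00000145050; chr3:51385047-51389397, plus strand, GRCh38). *CRELD2* (ENSG00000184164; chr22:49918167-49927540, plus strand, GRCh38) stood at 40.2, 35.9 and 35.1 CPM in DMSO and 36.2, 43.6 and 45.7 CPM in KSRi. *MANF* stood at 69.5, 56.4 and 63.4 CPM in DMSO and 57.5, 61.0 and 54.0 CPM in KSRi. In both genes the groups overlapped, and neither was called (*CRELD2* edgeR adjusted p = 0.16, log2 change 0.18 with SE 0.10; *MANF* log2 change −0.13, adjusted p = 0.202). Without KSRi replicate 1, *CRELD2* was called higher (log2 change 0.27, adjusted p = 0.0165).

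ER-associated degradation recognises misfolded proteins, moves them to the cytosol and marks them with ubiquitin. *EDEM1* codes for a lectin that picks out glycoproteins with trimmed glycans (ENSG00000134109; chr3:5187646-5219957, plus strand, GRCh38). Its levels were 531, 538 and 520.1 CPM in DMSO and 700.1, 792 and 831 CPM in KSRi. Each KSRi library was above each DMSO library (1.46-fold, edgeR adjusted p = 2.14e-05, log2 change 0.55 with SE 0.07). *OS9*, another lectin of the pathway (ENSG00000135506; chr12:57693955-57721557, plus strand, GRCh38), stood at 145, 123 and 139 CPM in DMSO and 166, 186 and 252 CPM in KSRi. KSRi replicate 3 was the highest, and the groups did not overlap (1.48-fold higher, edgeR adjusted p = 0.000988, log2 change 0.57 with SE 0.12). *DERL1*, for a channel-forming derlin, rose 1.29-fold (edgeR adjusted p = 0.0087), a call lost without KSRi replicate 3 (0.0505). The ubiquitin ligase *SYVN1* (0.07), its partner *SEL1L* (−0.03), the derlin *DERL2* (−0.07) and *HERPUD1* (−0.00), which organises the ligase complex, were not called. For *HERPUD1* the 95% interval of the log2 change ran from −0.16 to 0.15, and the libraries overlapped at 60.1, 57.4 and 59.0 CPM in DMSO and 56.6, 61.7 and 57.7 CPM in KSRi.

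The translocon and signal peptidase genes, which bring proteins into the ER, gave 0 calls of 6 by edgeR, and 0 of 6 had an unadjusted p under 0.05. Over all genes, 40.7% were called and 9251 of 18963 had an unadjusted p under 0.05. *SSR1*, a subunit of the translocon-associated complex (ENSG00000124783; chr6:7268306-7347446, minus strand, GRCh38), stood at 207, 207 and 210.4 CPM in DMSO and 198, 197 and 179 CPM in KSRi. *SPCS3*, a subunit of the signal peptidase (ENSG00000129128; chr4:176319964-176332245, plus strand, GRCh38), stood at 267, 258 and 265 CPM in DMSO and 243, 249 and 252 CPM in KSRi. In both, all KSRi libraries were below all DMSO libraries, by a log2 change of −0.12 (adjusted p = 0.146) and −0.09 (adjusted p = 0.244) in edgeR, neither past the threshold. How many of all genes were separated in this way with KSRi was not counted. Nothing is therefore read from the separation itself, here or for the members above. The other 4 had log2 changes of −0.06 (*SEC61B*) to 0.09 (*SEC61A1*, the pore of the channel, and *SPCS2*). *SEC61A1* was called higher without KSRi replicate 1 (log2 change 0.21, adjusted p = 0.0287).

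**Figure D2:**
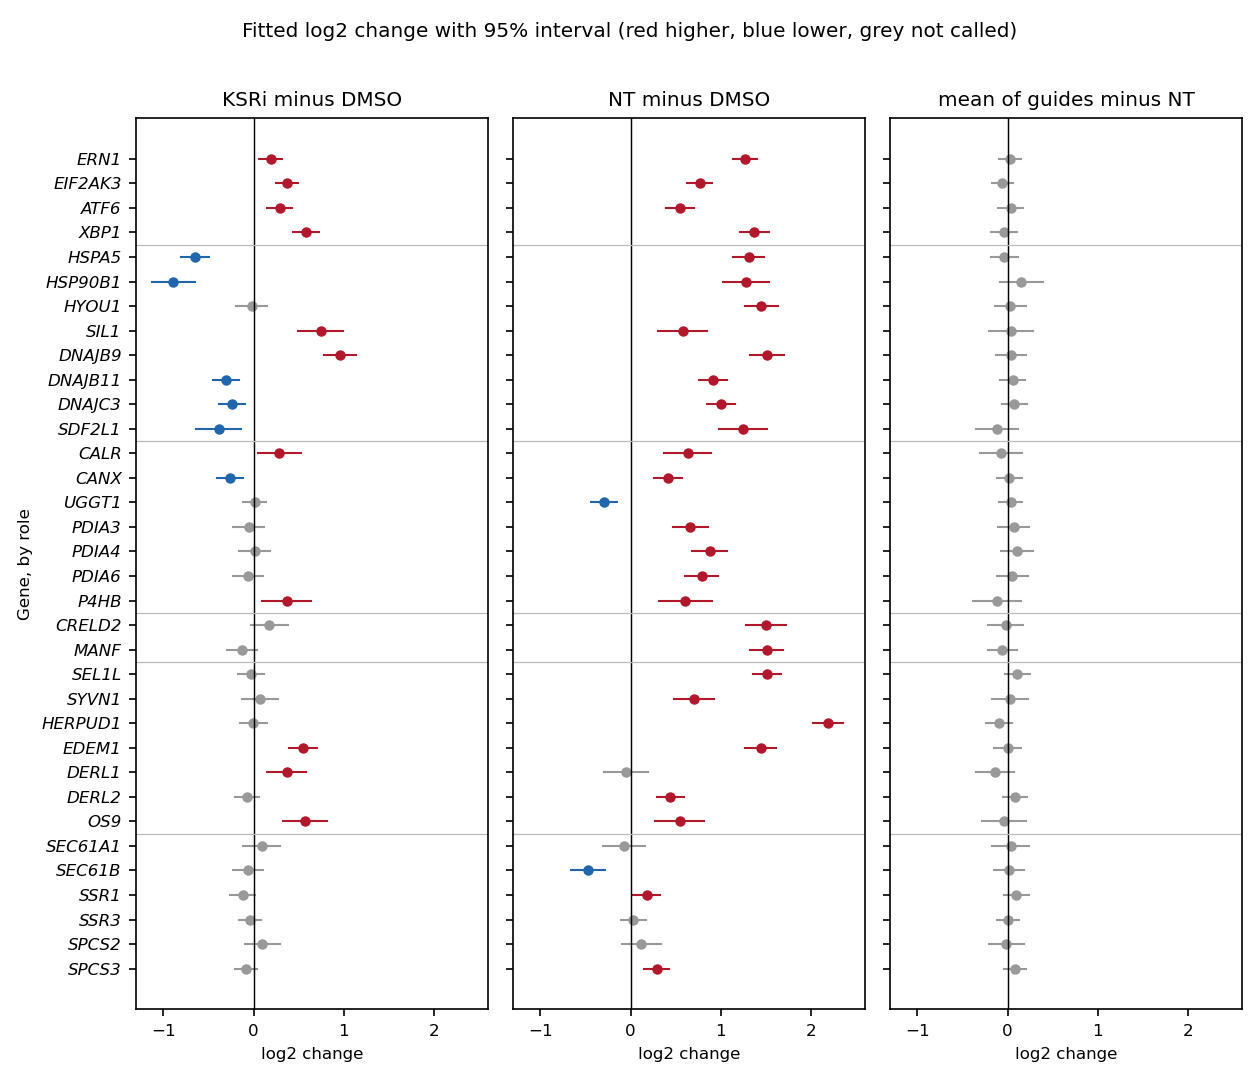
Fitted log2 change of each gene with its 95% interval in the comparisons named above the panels, with genes ordered by role. With KSRi against DMSO 11 genes are called higher (red) and 6 lower (blue); with both guides against NT all intervals are grey and cross 0; with NT against DMSO 28 are red and 2 blue.

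The second comparison asked whether targeting *KSR2* with guides moved the same genes. It did not move any of them past the threshold: 0 of 34 members were called with guide 1 against NT, with guide 2 against NT, with both guides against NT or between the guides, and 0 of 34 had an unadjusted p under 0.05 in any of these edgeR tests. DESeq2 and limma-voom also gave 0. Over all genes, 0.00527% were called with guide 1, 0.0105% with guide 2, 0.0158% with both and 0.00527% between guide 2 and guide 1, so the absence of calls among the members matches the table as a whole. In the same order, 880, 683, 788 and 614 of 18963 genes had an unadjusted p under 0.05 in edgeR. In the pooled test 6 guide libraries were set against 2 NT libraries.

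With both guides the log2 changes ran from −0.14 (*DERL1*) to 0.15 (*HSP90B1*), and no 95% interval reached below −0.38 (*P4HB*) or above 0.39 (*HSP90B1*). Nearest to the threshold were *SEL1L* (log2 change 0.11), *SPCS3* (0.09) and *SSR1* (0.09), and the lowest edgeR adjusted p of any member was 0.989. *XBP1* stood at 226 and 223 CPM in NT, 206, 220.3 and 214 CPM with guide 1 and 214, 226 and 227 CPM with guide 2. *HSPA5* stood at 1650.1 and 1659.7 CPM in NT, 1512, 1502 and 1578 CPM with guide 1 and 1686, 1693 and 1726 CPM with guide 2. For *XBP1* guide 1 and NT libraries did not overlap and guide 2 libraries did, and for *HSPA5* all guide 1 libraries were below NT and all guide 2 libraries above it, neither past the threshold. Between the guides, the log2 change of guide 2 over guide 1 ran from −0.06 (*HERPUD1*) to 0.20 (*SDF2L1*), and *HSPA5* had the lowest unadjusted p (0.0506, edgeR). With guide 1 alone the changes ran from −0.21 (*SDF2L1*) to 0.13 (*HSP90B1*), and with guide 2 alone from −0.13 (*HERPUD1*) to 0.18 (*HSP90B1*).

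*ERN1* stood at 152 and 158 CPM in NT, 158, 159 and 156 CPM with guide 1 and 160.4, 152 and 161 CPM with guide 2, and *EIF2AK3* at 65.4 and 67.9 CPM in NT, 61.3, 63.0 and 65.9 CPM with guide 1 and 62.9, 66.2 and 65.6 CPM with guide 2. *ATF6* was measured at 185 and 169 CPM in NT, 173, 180.4 and 182 CPM with guide 1 and 180.2, 182 and 190.4 CPM with guide 2. In each of the 3 genes the guide libraries overlapped the NT range. *DNAJB9*, which rose with KSRi, stood at 43.7 and 43.3 CPM in NT, 41.7, 45.3 and 45.9 CPM with guide 1 and 49.1, 44.0 and 42.2 CPM with guide 2. The guide libraries lay on both sides of NT. *EDEM1* stood at 1449 and 1433 CPM in NT, 1460.4, 1424 and 1354 CPM with guide 1 and 1438, 1416 and 1554 CPM with guide 2, again on both sides.

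*CANX* was at 1404 and 1369.8 CPM in NT, 1345, 1449.9 and 1394 CPM with guide 1 and 1389, 1469 and 1395 CPM with guide 2. *P4HB* was at 699 and 653 CPM in NT, 673, 563 and 619 CPM with guide 1 and 659, 567 and 666 CPM with guide 2. *OS9* was at 204 and 192 CPM in NT, 192, 175 and 201 CPM with guide 1 and 200.3, 182 and 203 CPM with guide 2. In these 3 the NT range overlapped that of each guide. In *CALR*, *PDIA3* and *PDIA4*, of the calnexin cycle and oxidative folding group, the NT libraries did not overlap those of 1 guide. *CALR* was at 2986 and 2772 CPM in NT, 2627, 2764 and 2558 CPM with guide 1 and 2924, 2776 and 2829 CPM with guide 2, with guide 1 below NT. *PDIA3* was at 444 and 444 CPM in NT, 439, 453 and 459.8 CPM with guide 1 and 479.8, 472 and 491 CPM with guide 2, and *PDIA4* at 476 and 413 CPM in NT, 444, 464 and 477 CPM with guide 1 and 494, 491 and 498 CPM with guide 2, with guide 2 above NT in both. None of the 3 was called. Members of other roles were also apart from NT, such as *HERPUD1* and *SDF2L1* with guide 1 and *HSP90B1* and *SEL1L* with guide 2. *DERL1* was apart with each guide. How many of all genes were apart in this way was not counted, so nothing is read from it. For the secreted factors, *CRELD2* was at 108 and 101 CPM in NT, 96.7, 109 and 107 CPM with guide 1 and 114, 101 and 92.8 CPM with guide 2 and *MANF* at 175 and 184 CPM in NT, 168, 166 and 183 CPM with guide 1 and 168, 183 and 168 CPM with guide 2. *SSR1* was at 229.8 and 242 CPM in NT, 235, 257 and 255 CPM with guide 1 and 244, 252 and 268 CPM with guide 2, and *SPCS3* at 324 and 321 CPM in NT, 323, 342 and 351 CPM with guide 1 and 339, 344 and 354 CPM with guide 2. All guide 2 libraries of *SSR1* and *SPCS3* were above NT, and neither gene was called.

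Whether the effect of the inhibitor differed from that of the guides was tested directly, as KSRi minus DMSO less the mean of both guides minus NT. In this test 8 members were called higher and 5 lower by edgeR, and 17 had an unadjusted p under 0.05, while 28.6% of all genes were called (16.6% higher and 12.1% lower). Of all 18963 genes, 7605 had an unadjusted p under 0.05. The 8 were *DNAJB9* (difference in log2 change 0.92, adjusted p = 1.70e-05), *SIL1* (0.70), *XBP1* (0.63), *OS9* (0.61), *EDEM1* (0.55), *DERL1* (0.50), *EIF2AK3* (0.43) and *ATF6* (0.26, adjusted p = 0.0452). Those called lower were *HSP90B1* (−1.04, adjusted p = 0.000171), *HSPA5* (−0.61, adjusted p = 0.000399), *DNAJB11* (−0.36), *DNAJC3* (−0.31) and *CANX* (−0.28, adjusted p = 0.0373). *ERN1*, *SDF2L1*, *CALR* and *P4HB* were called with KSRi in the first comparison, but their differences from the guides were not. *P4HB* lay at the threshold (adjusted p = 0.053) and was called under 8 alternatives, including DESeq2 (0.0444), and *CALR* without KSRi replicate 1 (0.00614) or without a low-count filter (0.0115). Without NT replicate 1, 5 were called higher (*ATF6*, *DERL1* and *OS9* were lost) and 3 lower (*CANX* and *DNAJC3* were lost), and without NT replicate 2, *CANX* and *DNAJB11* were lost. DESeq2 also called *SPCS3* and *SSR1* lower. Over all libraries left out in turn, *ATF6* and *CANX* reached adjusted p of 0.237 and 0.125, and besides NT both were lost without DMSO replicate 1, DMSO replicate 2, guide 1 replicate 3 or guide 2 replicate 2. Without guide 1 replicate 1, guide 1 replicate 2, guide 2 replicate 1 or KSRi replicate 2 *ATF6* was lost as well, and *DNAJC3* was lost without KSRi replicate 2 (0.0507).

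**Figure D3:**
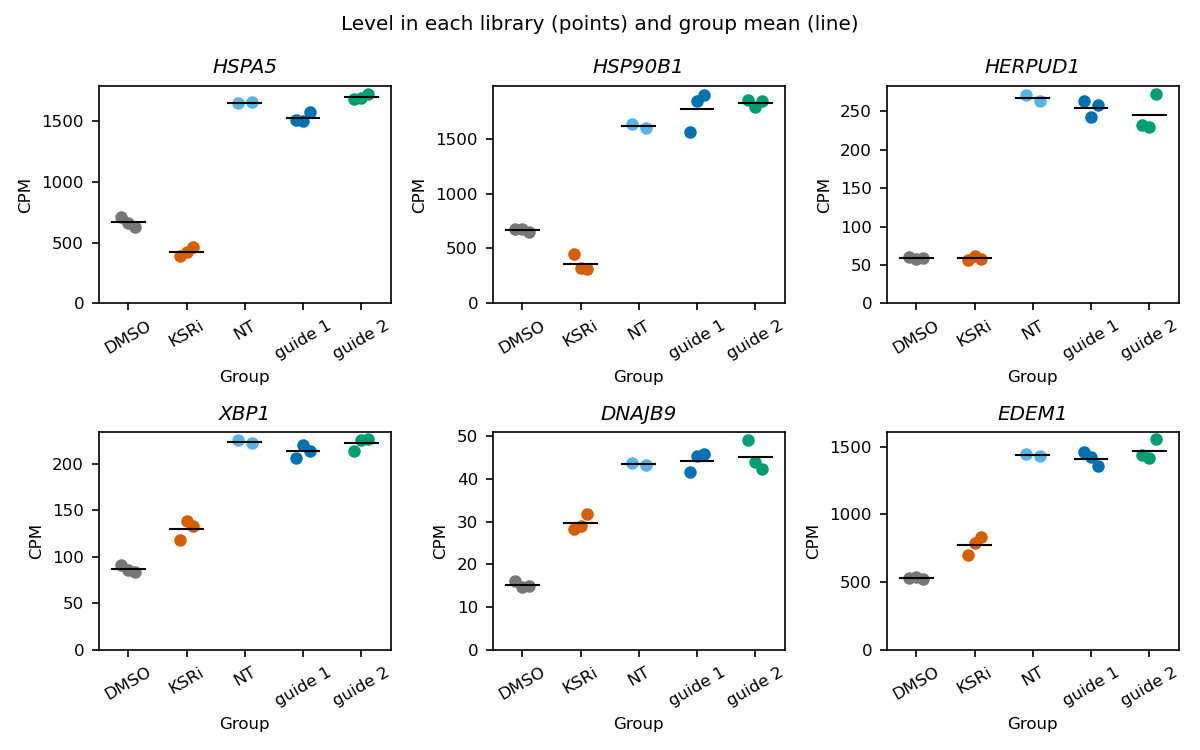
CPM of single genes in each library (points, with a line at the group mean) for the 5 groups, with each vertical axis starting at 0. *HSPA5* is lowest in the KSRi libraries (393 to 460.4 CPM) and *DNAJB9* is higher in KSRi than in DMSO, and the NT, guide 1 and guide 2 points of all 6 genes lie above the DMSO points.

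Among the comparisons tested, the largest differences of these genes were between the control groups. NT libraries had 28 of the 34 members higher and 2 lower than DMSO, with 4 not called, by edgeR at an adjusted p under 0.05; over all genes, 65.8% were called, 34.6% higher and 31.2% lower. The members' median log2 difference was 0.737, and that of all genes 0.0413. Under upper-quartile factors the 2 medians were 0.953 and 0.257, and 66.4% instead of 52.6% of all calls were higher. These groups differ in the guide vector, the solvent and possibly in culture and library set, which cannot be told apart. The DMSO libraries also serve as the control of the KSRi comparison, so the NT and KSRi differences below are given side by side and not correlated.

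*HERPUD1*, which links the ligase complex of ER-associated degradation, had the largest difference. It stood at 60.1, 57.4 and 59.0 CPM in DMSO and 271 and 264 CPM in NT, 263, 243 and 259 CPM with guide 1 and 233, 230.2 and 272 CPM with guide 2. All NT libraries were above all DMSO libraries by 4.55-fold (edgeR adjusted p = 1.42e-12, log2 difference 2.18 with SE 0.08), while KSRi against DMSO gave −0.00. Next came *DNAJB9* (2.86-fold in NT, 1.94-fold in KSRi, both higher than DMSO), *MANF* (2.85-fold), *SEL1L* (2.85-fold) and *CRELD2* (2.83-fold), whose KSRi changes of −0.13, −0.03 and 0.18 were not called. *HYOU1* was 2.73-fold and *EDEM1* 2.72-fold higher in NT.

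The sensors and *XBP1* were all higher in NT, with *XBP1* at 2.59-fold, *ERN1* at 2.41-fold, *EIF2AK3* at 1.70-fold and *ATF6* at 1.46-fold. All 8 genes of the BiP machine were higher. *HSPA5* was 2.48-fold (edgeR adjusted p = 3.98e-10) and *HSP90B1* 2.43-fold higher in NT, the 2 genes that fell most with KSRi. *SDF2L1* (2.37-fold), *DNAJC3* (2.01-fold), *DNAJB11* (1.89-fold) and *SIL1* (1.49-fold) followed. The disulphide isomerases and lectins were higher by less, from *PDIA4* (1.84-fold), *PDIA6* (1.73-fold), *PDIA3* (1.58-fold), *CALR* (1.55-fold) and *P4HB* (1.52-fold) to *CANX* (1.33-fold). Among the degradation genes *SYVN1* was 1.63-fold, *OS9* 1.46-fold and *DERL2* 1.36-fold higher, and *DERL1* was not called (−0.05).

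Among the genes of entry into the ER, *SPCS3* (1.22-fold) and *SSR1* (1.13-fold, edgeR adjusted p = 0.0388) were slightly higher in NT, *SEC61B* was lower (log2 difference −0.47), and *SEC61A1* (−0.07), *SSR3* (0.03) and *SPCS2* (0.12) were not called. *UGGT1*, which tests glycoproteins for their fold, was lower (−0.29). The *SSR1* call was lost in 7 alternatives, among them the fits without any 1 of the DMSO or NT libraries (adjusted p of up to 0.218). Under upper-quartile factors *UGGT1* was no longer called (−0.08) and *SPCS2* (0.33) and *SSR3* (0.25) were called higher, as they were with a filter of 5 CPM in 3 libraries. The summed CPM of the B-cell and plasma-cell markers was 179 to 191 in DMSO, 199 to 276 in KSRi and 360 to 384 in NT, and all 4 of the markers tested were called higher in NT. Most of the sum was *MZB1* (155 to 368 CPM over all libraries), whose product is itself an ER protein, beside *CD79A* (21.8 to 67.9) and *EBF1* (1.72 to 4.49), with *MS4A1* near 0. The erythroid and megakaryocyte markers summed to 0.544 to 0.673 CPM in DMSO, 0.168 to 0.967 in KSRi and 4.81 to 6.33 in NT, with *ITGA2B* the only 1 of 8 to reach 1 CPM. The part of these markers in the NT difference was not tested.

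**Figure D4:**
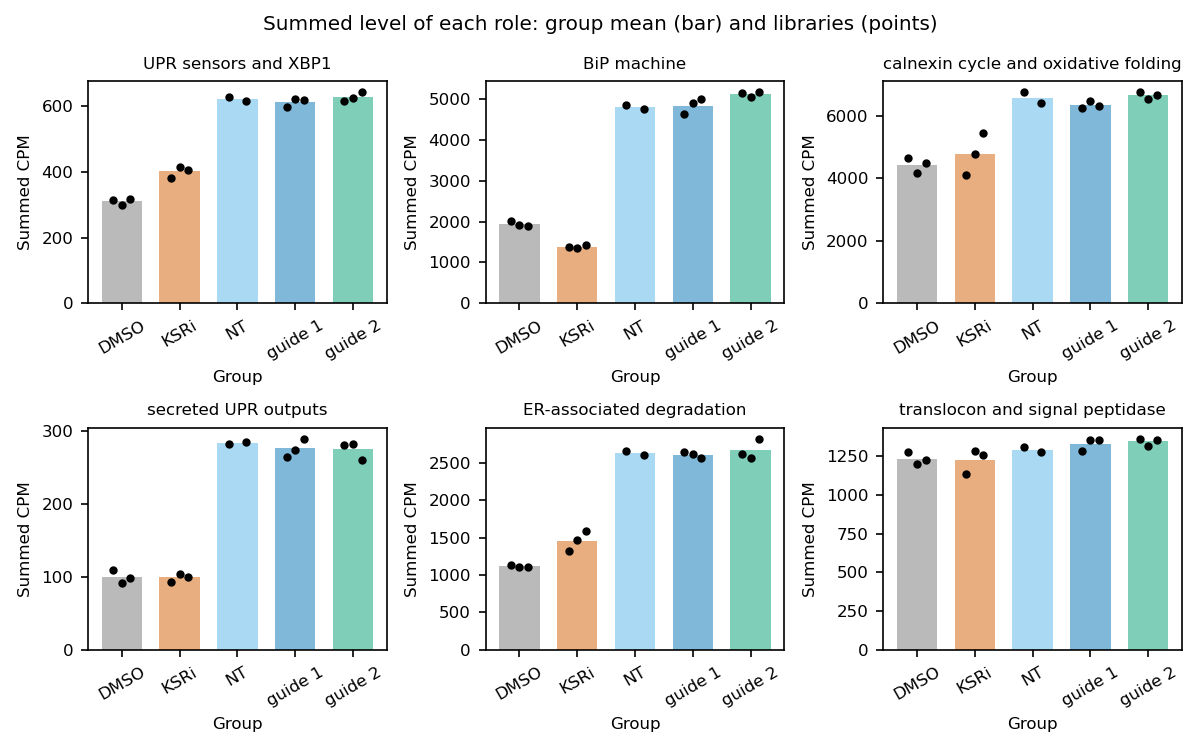
Summed CPM of each role by group, with bars for the group mean and points for libraries, on axes that start at 0. The BiP machine sums to 1944 CPM in DMSO, 1386 in KSRi and 4814 in NT, the degradation genes to 1119, 1460 and 2632, and the translocon genes to 1234, 1225 and 1293.

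Split by promoter, and against 22% of all genes higher and 18.7% lower with KSRi and 34.6% higher and 31.2% lower in NT, the 10 members with an ER stress response element of either form counted 2 higher and 4 lower with KSRi (median log2 change −0.04) and 10 of 10 higher in NT against DMSO (median 1.29). The 22 members in the promoter table without one counted 8 higher and 2 lower with KSRi (median 0.04), and 17 higher and 2 lower in NT (median 0.593). Several of the KSRi counts lie near those shares, and nothing particular to either set is read from them. The 5 genes whose sequences are printed went both ways with the inhibitor: *XBP1* rose, and *HSPA5*, *HSP90B1*, *CANX* and *SDF2L1* fell. In NT all 5 were higher.

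Beyond the members, other genes of the pathway were described from a list of 157, of which 153 were tested. Of these, 46 were called higher and 24 lower with KSRi (median log2 change 0.07), against 22% higher and 18.7% lower over all genes. Genes listed under PERK and ATF4 were all higher, 11 of 11, with a median of 0.66. *CHAC1*, which degrades glutathione, rose 6.96-fold, *SESN2*, a stress-induced inhibitor of mTORC1 signalling, 3.27-fold and the transcription factor *ATF3* 2.85-fold. *ATF4* itself rose 1.76-fold and *DDIT3*, for the death-linked factor CHOP, 1.46-fold. In NT against DMSO 10 of these 11 were higher, with a median of 2.17, against 34.6% of all genes higher. The list was led by *TRIB3* (12.5-fold), *DDIT3* (10.5-fold) and *CHAC1* (10.1-fold). With both guides against NT 0 of 153 were called by edgeR and 6 had an unadjusted p under 0.05. Over all genes, 0.0158% were called and 788 of 18963 had an unadjusted p under 0.05.

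Other degradation genes counted 10 higher and 5 lower of 26 with KSRi, where 22% of all genes were higher and 18.7% lower. Several counts in this paragraph lie near those shares, and they are a description only. *DERL3*, a derlin, rose 4.34-fold from a low level (0.471 to 1.99 CPM), *EDEM2*, a mannosidase, rose 1.56-fold, and *UBE2G2*, a ubiquitin-conjugating enzyme, fell 1.46-fold. Genes that process or adjust the response counted 4 higher and 2 lower of 14. *BBC3* (2.35-fold), for the death factor PUMA, *CREB3L4* (1.87-fold), for a membrane-bound factor like ATF6, and *WFS1* (1.73-fold), for an ER membrane protein, were higher. Other folding enzymes and calcium genes counted 9 higher and 4 lower of 30, among them the thioredoxin-related *TMX4* (1.48-fold higher), the prolyl isomerase *FKBP11* (1.47-fold lower) and the calcium pump *ATP2A2* (1.39-fold lower).

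As a comparison outside the ER, 27 cytosolic and mitochondrial chaperones were tested. With KSRi 1 rose and 20 fell (median log2 change −0.51), against 22% of all genes higher and 18.7% lower. In NT against DMSO 0 were higher and 25 lower (median −1.60), against 34.6% of all genes higher and 31.2% lower. There *HSPA8*, the constitutive cytosolic Hsp70, was 9.03-fold lower. The ER members had medians of 0.00 and 0.737 in the same tests. The medians in NT lay on opposite sides of 0, and with KSRi *HSPA5* and *HSP90B1* fell as most of the cytosolic chaperones did.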

How the data were processed

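RNA sequencing of 14 Jurkat libraries was used. The authors deposited raw counts, as whole numbers for each Ensembl gene. STAR 2.7.11b, DESeq2 1.42.1 and GRCh38 are named per the submitters' processing notes. The counting program, its strand setting and the annotation were not given in the sources used here, which bears on genes that overlap others. Of the identifiers, 61369 matched a symbol and 172 did not.

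The tests used edgeR 4.0.16 (R 4.3.3). After TMM scaling and filterByExpr, all 14 libraries entered 1 fit with a mean for each group, since NT has 2 libraries, and contrasts were tested by the quasi-likelihood F test. Benjamini-Hochberg adjustment covered the 18963 genes, with a threshold of 0.05. The common biological coefficient of variation was 8.6%. Library totals were 27099107 to 43027877 in DMSO, 21710466 to 45897075 in KSRi, 25794010 to 34535929 in NT, 33919545 to 38801454 with guide 1 and 29979565 to 42717502 with guide 2. No 2 replicates agreed within sampling noise, and each library was entered as 1 sample. This does not show that they came from separate cultures. The procedure was tested on simulated data in which few genes changed. A large share of genes was called in the real data, so that test does not cover scaling under such shifts.

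The members, the other gene lists and the rule for naming genes were chosen with earlier results of these data known. All members are named with their change; values per library are given for *HSPA5*, the sensors, *XBP1* and the 2 genes of lowest p in each other role, and up to 3 genes of lowest p are named from each other list and, with no member called, for the guides. *HSP90B1* and *HERPUD1* were added after their values were seen. Promoters are those of up to 5 members with an element, lowest p first. Alternatives were DESeq2 1.42.0 and limma-voom (limma 3.58.1) as tools, upper-quartile or RLE factors, a minimum of 5 CPM in 3 libraries or no filter, a replicate block, fitting just the groups compared, and leaving out each library.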

Additional observations from a re-analysis of the deposited data

How the results depend on the processing

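Of the 17 members called with KSRi, 12 kept their call and direction in all 14 alternatives, and 5 (*ERN1*, *SDF2L1*, *CALR*, *P4HB*, *DERL1*) lost it in at least 1; no called value changed sign. Leaving out 1 library at a time, members called higher with KSRi numbered 7 to 13 (11 with all libraries), members whose inhibitor effect exceeded the guide effect 5 to 10 (8), and those with the opposite 3 to 6 (5). Upper-quartile factors left 1 member lower in NT than in DMSO instead of 2. With a replicate block, 10 members were higher and 6 lower with KSRi, and 8 were higher and 4 lower in inhibitor effect against guide effect. Between groups, deviations of samples with the same replicate number correlated at −0.184 to 0.111. For NT with guide 1 these were above those of other numbers (0.094 to 0.111 against −0.111 to 0.0207). They were also above for DMSO with guide 1 (0.00811 to 0.0655 against −0.0616 to 0.000622). KSRi with guide 1 ran the other way (−0.184 to −0.0564 against −0.0571 to 0.112). Deviations from means of 2 or 3 libraries are tied to each other, so whether the numbers mark pairs was not settled. NT has 2 libraries, the replicates may be technical, and the counting annotation is not known, so genes with shared exons and small changes are the least certain.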

Other observations

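Genes of entry into the ER, of sugar attachment and of export had calls in both directions with KSRi against DMSO, as did the whole table (22% of all genes higher and 18.7% lower), and their counts are a description only. Other translocation and signal peptidase genes counted 3 higher and 9 lower of 27 (edgeR, median log2 change −0.05), with *EMC2* of the membrane protein insertase 1.57-fold lower, *CCDC47* of the multipass translocon 1.51-fold lower and *SRP19* of the signal recognition particle 1.44-fold lower. Genes of N-glycosylation and glycan trimming counted 5 higher and 1 lower of 19 (median 0.14), with *GANAB*, a subunit of the trimming enzyme glucosidase II, 1.26-fold higher, *MLEC*, a lectin for early glycans, 1.21-fold higher and *ALG2*, a mannosyltransferase, 1.16-fold higher. Export and retrieval genes counted 4 higher and 3 lower of 26 (median 0.05). There the cargo receptor *LMAN1* fell 1.84-fold and the coat subunit *SEC24A* 1.22-fold, and the related receptor *LMAN2* rose 1.30-fold. In NT against DMSO the same 3 lists counted 4 higher and 17 lower, 3 higher and 6 lower, and 3 higher and 9 lower, against 28 higher and 2 lower among the 34 members and 34.6% higher and 31.2% lower over all genes. Over all 153 other genes tested, 45 were higher and 59 lower in NT (median −0.08).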
